A study of Mus musculus with 16 samples.

Results

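The genes described here are 10 genes of the mouse oocyte and the early embryo, Zp3, Zp2, Gdf9, Bmp15, Nlrp5, Ooep, Npm2, Dppa3, Zar1 and Oosp1, measured in blastocysts. They were chosen by name, and every probe set whose platform annotation names 1 of them alone was taken. In the annotation used, 9 of the 10 genes had such a probe set and they had 11 probe sets between them, out of 18193 genes and 34945 single-gene probe sets in all. Npm2, a nucleoplasmin that acts on sperm chromatin after fertilisation, had none and is not analysed here. Bmp15 had 3 probe sets and the other 8 genes had 1 each.

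The 12 samples were total RNA of blastocysts in 4 groups of 3 replicates. Blastocysts of the SB group received 20 µM SB203580, a compound used to block p38 MAP kinases. Those of the SP group received 25 µM SP600125, used to block JNK kinases, and those of the U group received 20 µM U0126, used to block MEK, which lies upstream of ERK. The WT group is the control. The labels name no treatment for it, give no strain, age or duration of treatment, and do not say whether it received the solvent. Replicate 1 of each group was read on the 430A plus 430B array pair after a small sample labelling assay, and replicates 2 and 3 to 430 2.0 arrays after a two-cycle assay. Whether replicates came from separate embryo cultures is not in the labels, and the p-values cover only the spread seen between these samples, which may be technical. Signals between samples of the same array type correlated across probe sets at 0.932 to 0.965, and between array types at 0.70 to 0.739, so signals are set side by side only within an array type. All 8 trophectoderm genes checked (among them Cdx2, Gata3 and Krt8) were bright in WT, as were Nanog, Pou5f1 and Tdgf1 of 6 inner cell mass genes and 3 of 6 primitive endoderm genes. None of 11 genes of cumulus and granulosa cells, the cells that surround an oocyte, was bright. A Foxl2 probe set of that list was at the 91.61st percentile in WT replicate 1 (430B), and at the 61.0th and 60.32nd on 430 2.0. Of 6 genes of uterine and oviduct epithelium, Wfdc2 was bright, at the 85.96th to 90.08th percentile in WT, and its source was not tested. None of 5 genes of blood and immune cells was bright.

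An oocyte stores messenger RNA made during its growth, because it and the zygote pass through meiosis and the first divisions with little transcription of their own. Most of this maternal RNA is degraded around the time when the embryo's own genome is switched on, well before the blastocyst forms. Maternal-effect genes are those whose product, laid down by the mother, the embryo needs after fertilisation. Some of them are transcribed again by the embryo, and an array signal does not tell a stored messenger from a newly made one.

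A probe set is called bright in a group where its signal was at or above the 75th percentile of the non-control probe sets of its array in every sample of the group, and dim where it was below the 40th percentile in every sample. Signals are the deposited linear values. Probe sets bind with different strength, so brightness ranks a probe set on its array and is not a number of transcripts. Of the 11 probe sets, 2 were bright in WT, those of Dppa3 and Ooep, and both were bright in all 12 samples. The Zar1 probe set was at or above the 75th percentile on the replicate 1 arrays alone. In WT 4 probe sets were dim, those of Nlrp5 and Oosp1 and 2 of the 3 for Bmp15, and the others lay between. The bright share, 18.18% of the 11, was near the 17.09% among all 45037 non-control probe sets, and the dim share was 36.36%, against 25.46%. In bulk RNA, fewer cells that hold a transcript and less of it in each cell cannot be told apart.

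**Figure D1:**
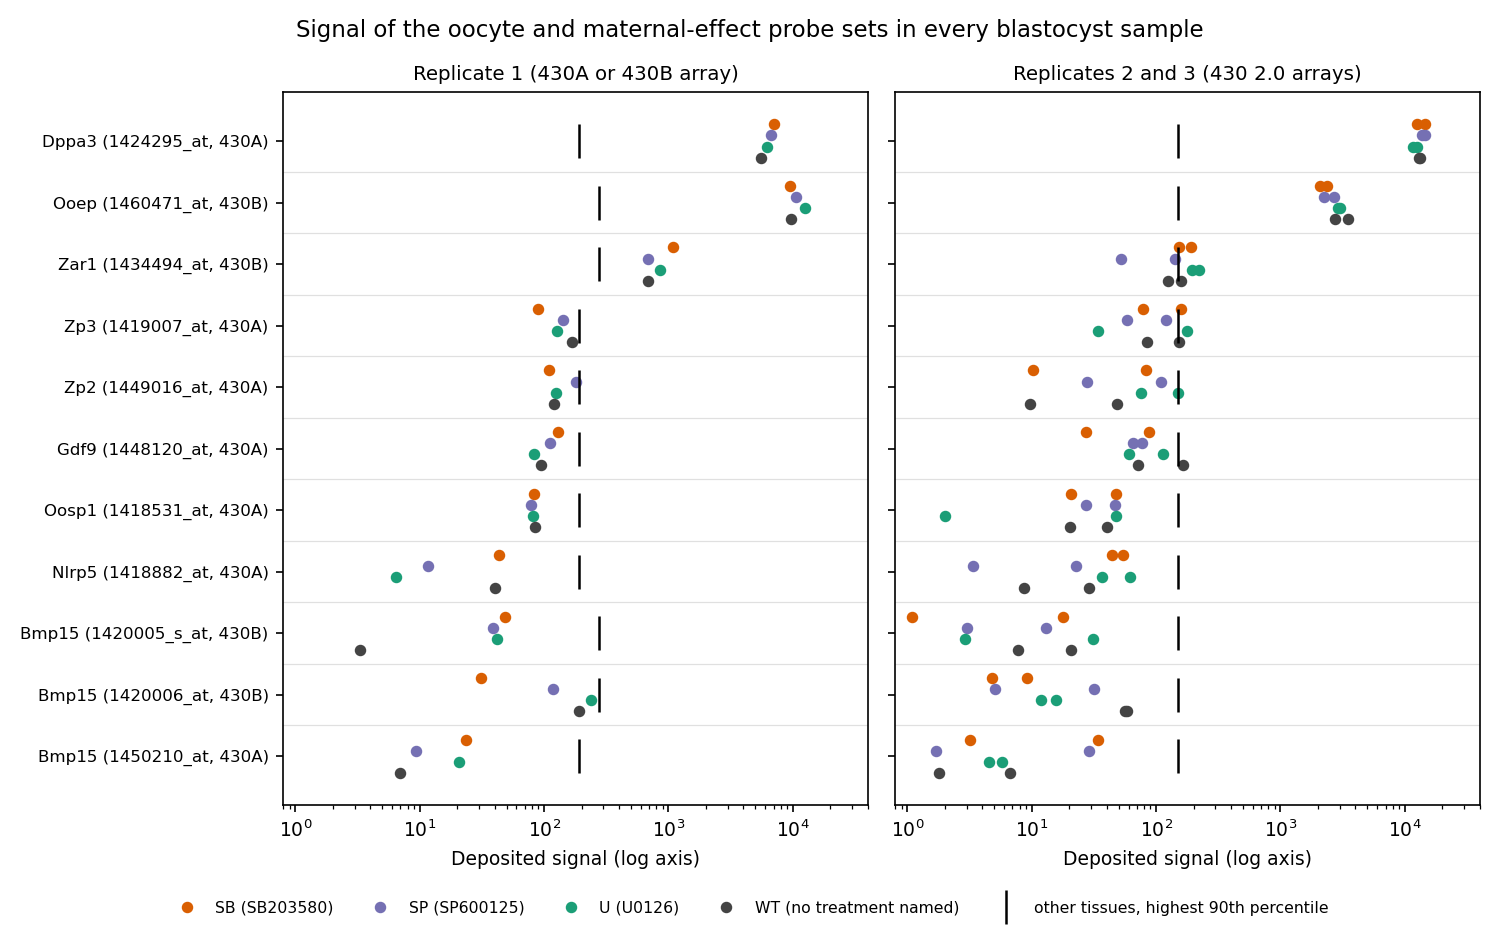
Deposited signal (log axis) of each of the 11 probe sets in every sample, with replicate 1 at the left and replicates 2 and 3 at the right. Each point is a sample, coloured by group (SB, SP, U, WT), and the black mark is the highest 90th percentile, over the arrays of a type, of 45 probe sets of genes used in other tissues (192.5 on 430A from 40 of them, 278.8 on 430B from 5, 149.6 on 430 2.0 from all 45). Dppa3 and Ooep lie far to the right of the mark in all 12 samples, and Zar1 does so on the 430B arrays alone.

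As a yardstick, 22 genes used in other tissues (45 probe sets) were read on the same arrays, and 24 of these probe sets were dim and 2 bright in WT. Both bright ones belong to Mbp, a myelin gene. Dppa3 and Ooep exceeded the brightest of them on every array that carries them. Zar1 exceeded their 90th percentile on the 4 replicate 1 arrays and on 6 of the 8 430 2.0 arrays, with both SP arrays as the exceptions. The 430B arrays, which hold Zar1, Ooep and 2 Bmp15 probe sets, carry 5 of the 45 comparison probe sets, so their 90th percentile rests on 5 values. Zp3 exceeded the 90th percentile of the comparison probe sets in 5 of the 12 samples, and Zp2 and Gdf9 in 2 samples and 1 sample. Apart from a Bmp15 probe set in U replicate 1, no probe set of Nlrp5, Bmp15 or Oosp1 passed that level in any sample.

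Ooep and Nlrp5 encode parts of the subcortical maternal complex, an assembly under the oocyte membrane that cleavage-stage embryos need. On the 430B arrays of replicate 1 the Ooep probe set (1460471_at) had a signal of 9469.9 in SB, 10661.5 in SP and 12529.9 in U, against 9737.8 in WT. On the 430 2.0 arrays it had 2378.6 and 2078.2 in SB, 2691.2 and 2248.7 in SP, and 3025.0 and 2888.7 in U, against 3488.3 and 2760.7 in WT. It stood at the 99.01st to 99.43rd percentile in replicate 1 and at the 91.51st to 94.44th in replicates 2 and 3. The SB samples were below the WT samples of the same array type in all 3 replicates, and the U samples lay within the WT range on the 430 2.0 arrays. The change with SB was -0.33 ± 0.13 (log2 of the signal plus 12.6, SE, n = 3 per group, 95% interval -0.61 to -0.05), a 0.794-fold level. It did not pass the threshold (limma, Benjamini-Hochberg adjusted p = 0.402, unadjusted p = 0.0226). The changes with SP and U were -0.18 and 0.07, with limma adjusted p = 0.816 and 0.872.

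Nlrp5 was not bright in any group, and of 11 measured genes in a list of this complex and of related NLRP genes, Khdc3 and Nlrp4f were bright in WT. Nlrp5 (MATER, 1418882_at) had 43.7 in SB, 11.6 in SP and 6.5 in U, against 40.1 in WT, on the 430A arrays, and on the 430 2.0 arrays its signals spanned 3.4 to 62.1. It lay below the 40th percentile in 9 of 12 samples and never above the 44.80th. Khdc3 (FILIA), a member of the complex, had 430 2.0 signals of 22721.4 and 23920.3 in SB, 23011.3 and 22605.0 in SP, and 22018.8 and 24369.5 in U, against 21645.1 and 23074.0 in WT. Khdc3 was above the 99th percentile in every sample, with groups that overlapped. Nlrp4f, an NLRP family gene, was just above the threshold in WT, at the 75.74th to 77.83rd percentile. Tle6, a further core member, had 120.6 and 222.2 in the same WT samples, and Padi6, which forms the cytoplasmic lattices of the egg, had 82.1 and 43.7, neither of them bright.

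Dppa3 (Stella, PGC7) binds chromatin and guards maternal DNA methylation in the zygote. Its probe set (1424295_at) had a signal of 6993.2 in SB, 6660.3 in SP and 6231.9 in U, against 5529.2 in WT, on the 430A arrays. On the 430 2.0 arrays it had 14574.6 and 12534.1 in SB, 14579.8 and 13625.1 in SP, and 12411.1 and 11668.2 in U, against 13054.6 and 13236.4 in WT. It held the 97.62nd to 98.85th percentile throughout, and on the 430 2.0 arrays the brightest sample had 1.25 times the signal of the dimmest. Its changes were 0.14 ± 0.10 with SB, 0.16 ± 0.10 with SP and -0.03 ± 0.10 with U (log2, SE, n = 3 per group), with limma adjusted p = 0.735, 0.753 and 0.950. The 95% intervals, as ratios to WT, ran to 0.953 and 1.27 for SB, 0.964 and 1.29 for SP, and 0.849 and 1.13 for U. The residual SD of Dppa3 was 0.10, at the 2.83rd percentile of the 27022 probe sets tested, whose median was 0.34, so these intervals are narrow for this set of arrays. Dppa3 also marks primordial germ cells. Of 4 measured genes in a list for that cell type, Tfap2c alone was bright in WT, and it is also a trophectoderm gene, while Ddx4, Dazl and Prdm1 had WT medians between the 52.51st and 61.52nd percentile.

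Zar1 encodes a protein that binds messenger RNA in the oocyte and is needed at the oocyte-to-embryo transition. The probe set (1434494_at) had 1080.6 in SB, 679.6 in SP and 851.9 in U, against 688.2 in WT, on the 430B arrays, at the 79.70th to 87.05th percentile. On the 430 2.0 arrays it had 153.3 and 191.5 in SB, 52.5 and 141.0 in SP, and 195.1 and 220.2 in U, against 125.3 and 159.8 in WT, at the 46.63rd to 68.10th percentile. The U samples were above the WT samples on both array types, and the SP and WT samples overlapped on the 430 2.0 arrays. The changes were 0.38 with SB, -0.42 with SP and 0.44 with U (SE 0.31 each), none past the threshold, with limma adjusted p = 0.775, 0.814 and 0.609. Without SP replicate 2 the Zar1 change with SP was -0.02.

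Zp3 and Zp2 encode zona pellucida proteins, the coat that the growing oocyte secretes and that the blastocyst leaves at hatching. The Zp3 probe set (1419007_at) had 89.9 in SB, 141.6 in SP and 127.9 in U, against 168.5 in WT, on the 430A arrays. It had 78.0 and 158.8 in SB, 121.2 and 58.0 in SP, and 34.4 and 177.4 in U, against 152.0 and 84.2 in WT, on the 430 2.0 arrays. All 4 groups overlapped on the 430 2.0 arrays, and no sample was bright. The Zp2 probe set (1449016_at) had 109.5 in SB, 179.1 in SP and 125.8 in U, against 120.0 in WT, on the 430A arrays. On the 430 2.0 arrays it had 10.2 and 83.7 in SB, 108.8 and 28.0 in SP, and 75.6 and 149.3 in U, against 9.7 and 48.9 in WT. The U samples were above the WT samples on the 430 2.0 arrays and near WT on 430A. The change with U, 1.15 ± 0.61, was the largest of the 6 tested probe sets against WT and did not pass (limma adjusted p = 0.480). Zp1, the third of these coat genes, had WT signals of 101.0, 9.7 and 7.8 and was not bright either.

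Gdf9 and Bmp15 encode TGF-beta family ligands that the oocyte sends to the granulosa cells around it. The Gdf9 probe set (1448120_at) had 129.5 in SB, 112.0 in SP and 83.1 in U, against 94.3 in WT, on the 430A arrays, and 27.3 to 163.5 over the 430 2.0 arrays. Its changes with SB, SP and U were -0.49, -0.29 and -0.28 (SE 0.47 each), and all groups overlapped. The 3 Bmp15 probe sets did not move together. Of these, 1420005_s_at and 1450210_at were below the 40th percentile in all 12 samples. The third, 1420006_at, had 31.0, 4.8 and 9.1 in SB, 117.4, 5.1 and 31.7 in SP, and 237.6, 15.8 and 11.8 in U, against 189.4, 58.6 and 55.8 in WT (replicates 1, 2 and 3). On the 430 2.0 arrays all 6 inhibitor samples were below both WT samples, while on 430B the U sample was the highest and the SB sample the lowest. This probe set was under the filter on dim signals, and in a fit without that filter its change with SB was -1.97 ± 0.53, with unadjusted p = 0.00165 and limma adjusted p = 0.216. The same fit gave the other Bmp15 probe sets changes of 0.41 and 0.77 with SB, of opposite sign.

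Oosp1 encodes a protein secreted by the oocyte. Its probe set (1418531_at) had 83.5 in SB, 79.0 in SP and 82.0 in U, against 84.4 in WT, on the 430A arrays, and 2.0 to 47.7 on the 430 2.0 arrays. No sample lay above the 42.47th percentile, and this low signal limits what difference between groups could be seen. In the fit without the filter, its changes against WT were 0.06, 0.13 and -0.34 with SB, SP and U (SE 0.55 each).

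The comparisons with WT ask whether blocking any of the 3 kinases moved these genes. Each fit covered all 27022 probe sets that passed a filter on mean signal, which kept 6 of the 11 probe sets, for Zp3, Zp2, Gdf9, Ooep, Dppa3 and Zar1. With SB, 0 of 6 were called at a limma adjusted p under 0.05, where 0.389% of all tested probe sets were called, and 1 (Ooep) had an unadjusted p under 0.05, as had 9.36% of all. With SP, 0 of 6 were called, against 0.592% of all, and with U, 0 of 6, against 0.448%. In both of these 0 of 6 had an unadjusted p under 0.05, where 8.52% of all had with SP and 12% with U. At such background shares a group of 6 probe sets would rarely hold a call, so the counts of 0 say little about the genes as a group. The median change of the 6 was -0.07 with SB, -0.23 with SP and 0.02 with U, beside medians of 0.01, -0.00 and 0.06 over all tested probe sets. Without the filter, 0 of 11 were called in each comparison.

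**Figure D2:**
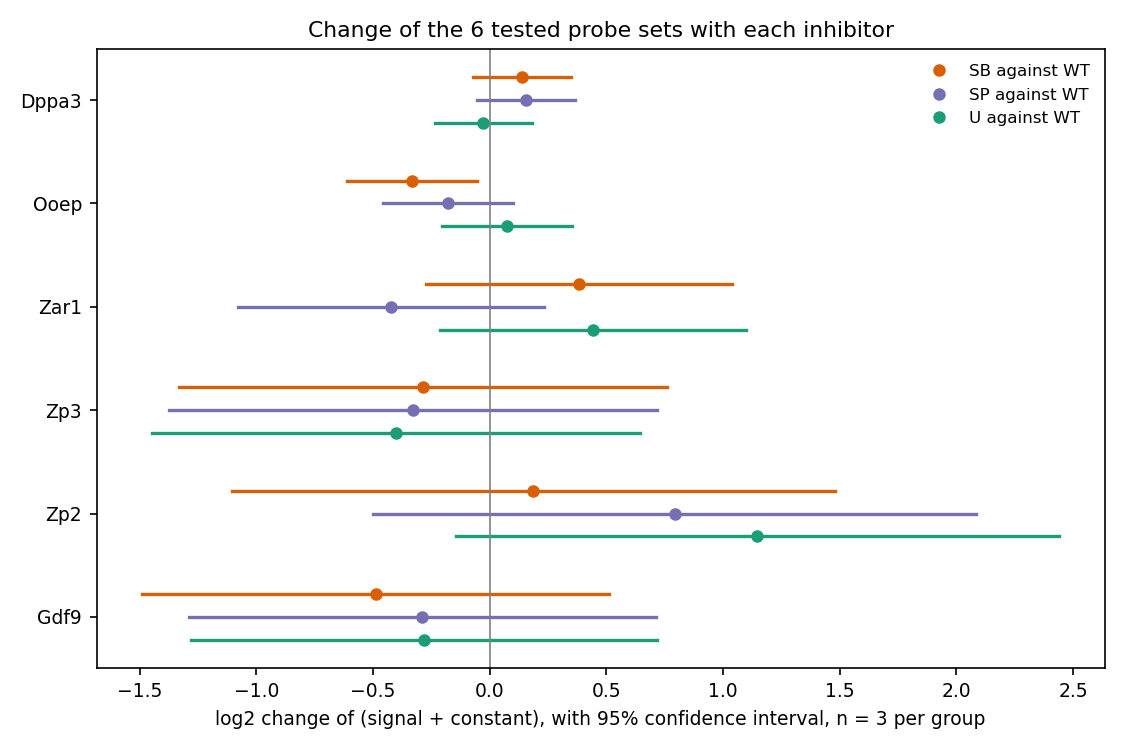
Change of the 6 tested probe sets with each inhibitor against WT (log2 of the signal plus 12.6, x axis), with 95% confidence intervals from the limma fit and n = 3 samples per group. The intervals of Dppa3 and Ooep are the shortest and those of Zp2 the longest, and the interval for Ooep with SB is the only one here that leaves out 0, before adjustment.

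Between inhibitors, 0 of 6 probe sets were called for SB against SP, where 0.788% of all tested probe sets were called, 0 of 6 for SB against U (1.37%), and 0 of 6 for SP against U (2.93%). Each of these comparisons held 1 of 6 probe sets with an unadjusted p under 0.05, where the shares of all were 10.6%, 13.3% and 17.4% in the same order. For SB against U it was Ooep, at -0.41 ± 0.13 (limma adjusted p = 0.162), with lower signal in SB in 3 of 3 replicates. For SB against SP and SP against U it was Zar1, at 0.81 and -0.86 ± 0.31 (limma adjusted p = 0.320 and 0.151). Both rest largely on SP replicate 2, the sample with a Zar1 signal of 52.5, and without it they were 0.40 and -0.46. The inhibitor comparisons share their samples with those against WT, so these values are not separate evidence. The compounds do not belong to a structural series and were given at different doses (20, 25 and 20 µM), so the values stand side by side.

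Wider lists of oocyte genes place the 10 genes among others of their kind. Of 67 measured genes in 6 lists (zona and egg surface, subcortical complex and NLRP genes, oocyte transcription factors, messenger storage and decay, meiosis and egg arrest, other oocyte genes), 13 had a bright probe set in WT. Over all genes it was 5042 of 18194, where probe sets that name no single gene count together as 1. By probe sets the 6 lists had 17 of 94 bright, or 18.09%, again near the share of all probe sets. The bright genes were Cd9, Khdc3, Nlrp4f, Sohlh2, Taf4b, Gtsf1, Cnot7, Zfp36l2, Rbbp7, Dppa5a, Rnf114, Spin1 and Mael. Several of these, such as Cd9, Cnot7 and Rbbp7, are used in many cell types. The oocyte transcription factor genes Nobox and Lhx8 were dim, as was Mos, the kinase gene of egg arrest. No gene of the meiosis list was bright in all 3 WT samples. Sycp3 of that list was at the 86.04th and 86.87th percentile on the WT 430 2.0 arrays. It missed the bright call through the 430A array of WT replicate 1, at the 55.02nd. A further list of maternal-effect genes for chromatin and preimplantation factors, such as Trim28, Dnmt1, Smarca4 and Ctcf, which embryos also transcribe, had 15 of 19 genes and 60.98% of 41 probe sets bright.

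**Figure D3:**
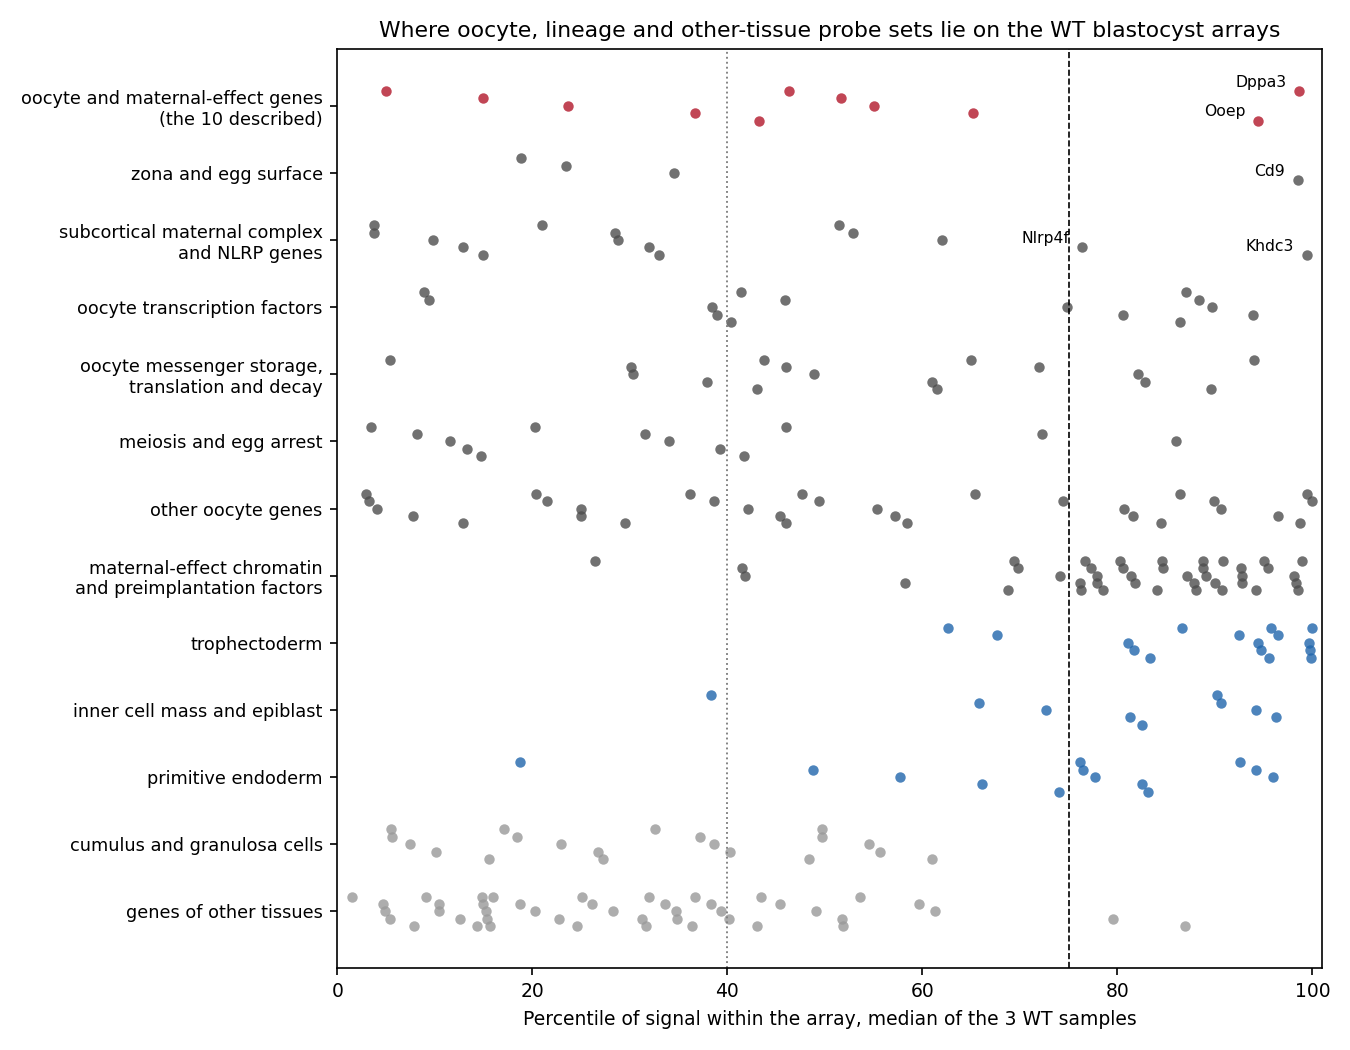
Percentile of signal within its array, as the median of the 3 WT samples (x axis), for every probe set of the 10 genes (red, 11 probe sets), the wider oocyte and maternal lists (dark grey), lineage markers (blue) and cells or tissues not sampled (light grey). The dashed line is the 75th and the dotted line the 40th percentile. Probe sets of the oocyte lists spread over the whole range, and those of the maternal chromatin list and of trophectoderm gather at the right.

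In the wider lists, 3 genes differed from WT with an inhibitor, 1 of 53 tested probe sets of the 6 oocyte lists with SP, where 0.592% of all tested probe sets were called, and 2 of 53 with U, where 0.448% were. Sycp3, a component of the synaptonemal complex of meiosis, was higher with SP. It had 387.6, 2135.9 and 3063.6 in SP, against 185.5, 1050.9 and 1138.7 in WT (replicates 1, 2 and 3), and every SP sample exceeded the WT samples of its array type. Sycp3 was picked as called, so this describes the call and is not further evidence. The U samples, with 244.8, 1587.7 and 1908.2, also exceeded the WT samples of their array type, without a call. The change with SP was 1.15 ± 0.17 (log2, SE, n = 3 per group, limma adjusted p = 0.00328). It was the only call among 5 tested probe sets of the meiosis list. In the fit without the intensity trend its adjusted p was 0.0887. In the same SP samples, 5 of 12 primitive endoderm probe sets and 1 of 16 trophectoderm probe sets (Elf5) fell. The summed signal of the primitive endoderm probe sets was 8268.0 in SP, against 10580.8 in WT, in replicate 1, and 9363.7 to 10119.3 against 14531.9 to 14598.8 on the 430 2.0 arrays, with no marker listed at 0. Their part in the Sycp3 difference was not tested.

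With U, Patl2 rose and Mael fell. Patl2, a translational repressor of the oocyte, had 2430.7, 580.2 and 537.1 in U, against 858.4, 186.9 and 273.6 in WT, a change of 1.33 ± 0.22 (limma adjusted p = 0.00909). Mael, a germ-line gene that acts against transposons, had 430, 224.4 and 191.4 in U, against 714, 485.8 and 610.2 in WT, a change of -1.13 ± 0.20 (limma adjusted p = 0.0145). In both genes the 2 U and 2 WT samples on the 430 2.0 arrays did not overlap. Replicate 1, with 1 sample of each group, differed in the same direction. Both genes were picked as called, so this describes the calls and is not further evidence. The Patl2 call was lost without U replicate 2, WT replicate 1 or WT replicate 2, and the Mael call without U replicate 2 or 3 or WT replicate 2 or 3, with adjusted p up to 0.0689 and 0.0821. Without the intensity trend both were lost, and Patl2 was also lost on the 430 2.0 arrays alone, with limma adjusted p up to 0.127 for Patl2 and 0.131 for Mael. Both were the single call of their list, among 11 tested probe sets for messenger storage and 19 for other oocyte genes. In the U samples 4 of 9 inner cell mass probe sets (Fgf4 and Sox2) rose and 1 of 12 primitive endoderm probe sets (Gata6) fell. Nanog of the inner cell mass list was not called, with 1160.7, 1882.6 and 1046.6 in U, against 1111.3, 1763.5 and 2375.6 in WT. The summed inner cell mass signal was 8872.1 in U, against 4902.0 in WT, in replicate 1. On the 430 2.0 arrays it was 18730.5 to 20726.2 against 14258.1 to 15290.3, with no marker listed at 0. Several of the 9 probe sets belong to Fgf4, so the sum counts that gene more than once. The part of the summed signal in the Patl2 and Mael differences was not tested. With SB, limma called 0 of the 53 tested probe sets of the 6 oocyte lists against WT (0.389% of all), and 7 had an unadjusted p under 0.05 (9.36% of all). In the maternal chromatin list 0 of 38 were called against WT with each inhibitor. In each comparison 8 of the 38 had an unadjusted p under 0.05, where 9.36% of all tested probe sets had with SB, 8.52% with SP and 12% with U. The medians over the 53 probe sets were 0.02 with SB, 0.14 with SP and 0.16 with U.

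**Figure D4:**
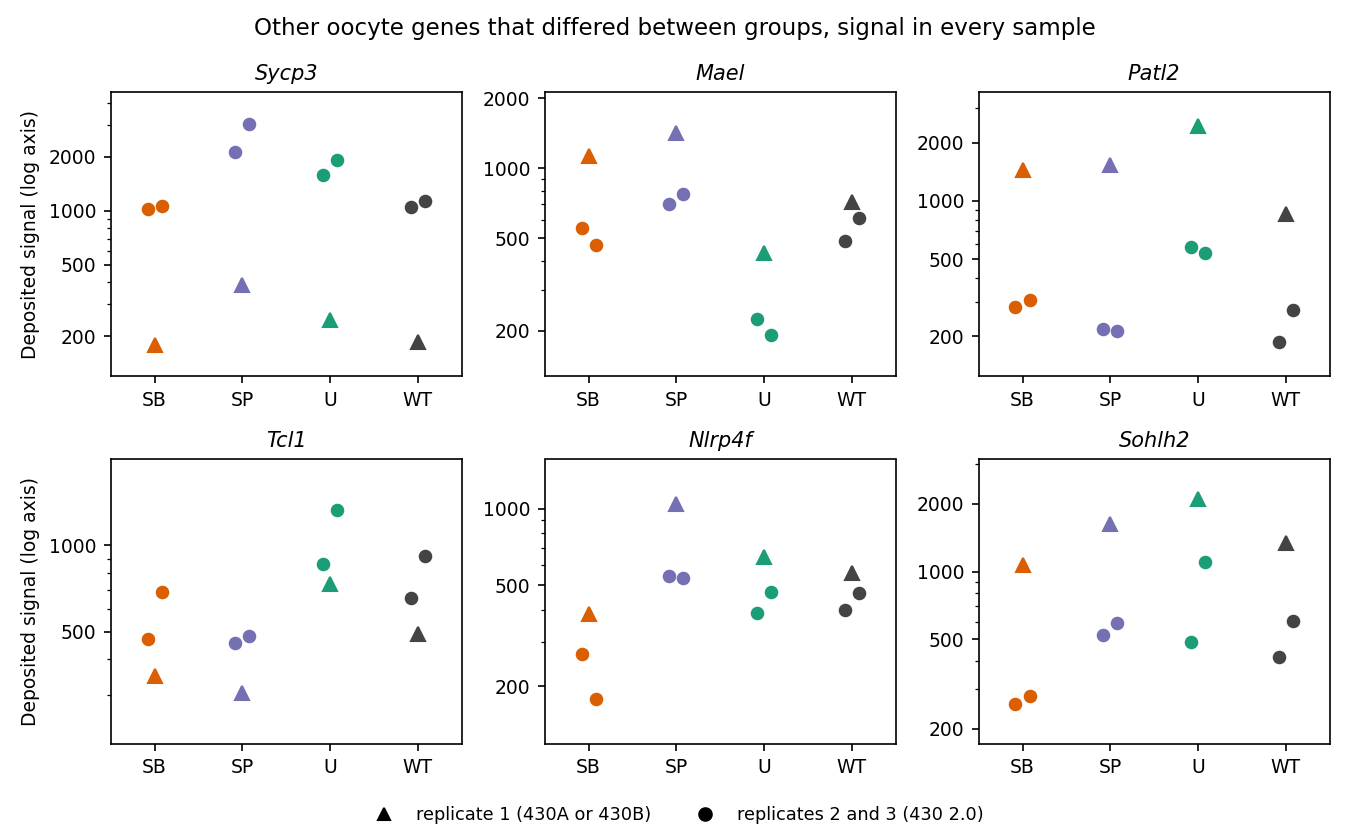
Deposited signal (log axis) of 6 oocyte genes outside the 10 in every sample, by group (SB, SP, U, WT on the x axis). Triangles are replicate 1 and circles replicates 2 and 3. Sycp3 is highest in SP on both array types, Mael is lowest in U, and Patl2 is highest in U.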

How the data were processed

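The deposited files hold linear signal intensity for each probe set. The authors had scaled every array to a trimmed mean of 500 (2 percent off either end), which was checked on the values. For software, background correction and summary method the sources used here give nothing. The 430A and 430B arrays of a sample were joined by label number. After adding 12.6 (the 20th percentile of the 430 2.0 values), log2 was taken. Of 45037 non-control probe sets, the 27022 with a 430 2.0 mean at or above the 40th percentile of such means (42.9) were tested. Limma 3.58.1 in R 4.3.3 fitted 4 groups with the array type as a fixed block and an intensity trend in eBayes. Two-sided p-values were adjusted by Benjamini-Hochberg across the tested probe sets of each comparison, with calls under 0.05. The fit was also run on simulated data with independent noise and known changes in the U samples. That run had no scaling differences between arrays of a type, so it cannot show how calls depend on scaling. Precision is limited by how few arrays there are.

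Replicate 1 fixes the array type. The difference between replicates 2 and 3 correlated at 0.018 to 0.088 between groups, so little pairing across groups was seen. This does not tell whether samples of the same replicate number shared a culture or batch, and it does not cover replicate 1. All 11 probe sets are named, with up to 4 called genes of each wider list and comparison. The members, lists and tests were chosen with earlier results of these data known. Alternatives were other added constants, filters, scalings, the 430 2.0 arrays alone, a replicate block, other eBayes settings, other brightness thresholds and leaving out each replicate. Gene symbols came from the platform annotation, and neighbouring genes from RefSeq (GRCm38.p6).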

Additional observations from a re-analysis of the deposited data

Results flagged for a closer look

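No probe set of the 10 genes differed between inhibitors at a limma adjusted p under 0.05. In the wider lists, 12 differences between inhibitors did, which are differences between 2 groups' effects against the same WT samples. Of 53 tested probe sets of the 6 oocyte lists, 2 were called for SB against SP, where 0.788% of all tested probe sets were called. For SB against U it was 3 of 53 (1.37% of all), and for SP against U 3 of 53 (2.93%). In the maternal chromatin list it was 0, 2 and 2 of 38 in the same order. The values below are log2 changes.

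Against U, Mael was higher in SP by 1.75 and in SB by 1.28. Tcl1, an oocyte and embryo gene, was at -1.19 for SP against U and -0.94 for SB against U. Brwd1, a bromodomain gene that the growing oocyte needs, was at -1.09 for SP against U and -1.10 for SB against U at one probe set (1433955_at). It was at -0.88 for SB against U at another (1452321_at), which was not called for SP against U. The other tested Brwd1 probe sets were called in no comparison, so the Brwd1 calls do not hold across its probe sets. Patl2 was at -1.10 and Dnmt3l, the cofactor of DNA methylation in the oocyte, at -0.73 for SP against U. Sohlh2, an oocyte transcription factor gene, was at -1.26 for SB against U.

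Between SB and SP, Sycp3 was at -1.21 and Nlrp4f at -1.30, both lower in SB. Nlrp4f had 385.2, 269.1 and 178.6 in SB, against 1040.6, 545.6 and 533.2 in SP, and its call was lost without SP replicate 1 (limma adjusted p = 0.0507).

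Other calls were lost when a replicate was left out. The Dnmt3l call was lost in 5 of 6 such fits (all but that without U replicate 2), where its change ran from -0.90 to -0.48, and it was -1.28 in replicate 1 and -0.46 on the 430 2.0 arrays. The call of Tcl1 for SB against U was lost without SB replicate 1 or 2 or U replicate 1 or 3, that of Sohlh2 without SB replicate 2 or 3 or U replicate 3, that of Brwd1 at 1452321_at without SB replicate 1 or 3 or U replicate 3, and that of Patl2 for SP against U without SP replicate 2 or 3. Without the intensity trend, 11 of the 12 calls were lost. Scaling each array to the median of its array type lost the calls of Patl2 and Dnmt3l for SP against U. It also lost those of Tcl1, Sohlh2 and Brwd1 at 1452321_at for SB against U. In all of these the signal was higher in U.

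Of the 15 differences called in the wider lists, WT comparisons included, 7 kept an adjusted p under 0.05 whichever replicate was left out, and 1, Mael for SP against U, kept it under every alternative tried.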

How the results depend on the processing

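In all 96 alternatives run for the 6 comparisons the count of called probe sets of the 10 genes remained 0. With a replicate block in place of array type it was 0 in each comparison, with total calls of 121 for SB against WT, 183 for SP against WT and 148 for U against WT. The labels do not say that replicate numbers pair samples, the data showed little of it, and the block changed no call among the 10 genes. With the brightness threshold at the 60th percentile 3 probe sets were bright in WT, since Zar1 joined Dppa3 and Ooep, and with the 90th there were 2. Of 558 alternative log2 changes of single probe sets, 35 had the opposite sign, none of them of a called value. Ooep with SB ranged from -0.48 to -0.18, with adjusted p from 0.309 to 0.770.

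Totals depended most on the intensity trend. Without it, 1 probe set was called for SB against WT, 8 for SP, 2 for U, 23 for SB against SP, 36 for SB against U and 130 for SP against U, against 105, 160, 121, 213, 371 and 791 with it. The highest totals over all alternatives were 140, 188, 187, 256, 498 and 1024. Scaling each array to its median moved the median change of all probe sets for U against WT by -0.19, and the share of calls that were higher was then 9.80% for U against WT (38.84% as deposited), 10.94% for SB against WT (22.86%), 9.60% for SB against SP (28.64%), 70.40% for SB against U (38.81%) and 86.37% for SP against U (49.18%). As deposited, the median signal on the 430 2.0 arrays was 77.7 and 83.0 in U, against 61.1 and 65.7 in WT. It was 132.8 against 147.4 on 430A and 229.6 against 221.9 on 430B. The causes of these medians were not tested. Of the 240 alternatives for the wider-list differences, 53 lost the call and none changed sign. Low signal limits Nlrp5, Oosp1 and Bmp15.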

Other observations

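The genes beside Dppa3 and Ooep on their chromosomes were looked up after the brightness of both was known, from the gene order in RefSeq (GRCm38.p6), with 3 protein-coding genes taken on each side. Beside Dppa3 on chromosome 6, 5 of the 6 neighbours were measured and 3 were bright in WT, Gdf3, Nanog and Slc2a3. Nanog had WT signals of 1111.3, 1763.5 and 2375.6, Gdf3 had 564.1, 1021 and 937, and Slc2a3, a glucose transporter gene, had 13946.1, 20037.5 and 21614.2. Gdf3 and Nanog are the genes next to Dppa3 on either side and are both known from pluripotent cells. Beside Ooep on chromosome 9, 1 of 6 was bright, the adjacent Dppa5a, a gene of pluripotent cells, with 19539.2, 44505.1 and 44379.1 in WT. Omt2b, an oocyte gene in the same stretch, was dim, with 9.8, 19.3 and 1.8. Around the measured genes that were not themselves bright, the highest count was 3 of 6, for Zp3. It was 2 of 6 for Gdf9 and for Zar1, 1 of 5 for Zp2 and 1 of 4 for Bmp15. For Oosp1 it was 1 of 6 and for Nlrp5 0 of 1. Bright neighbours were thus also seen beside genes that were not bright. Over all genes, 5042 of 18194 had a bright probe set in WT. With so few neighbours per gene, the counts do not decide whether bright neighbours are more frequent beside bright genes.

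Among the tested probe sets, Zp2, Zar1 and Gdf9 had the widest range of group means (1.15, 0.86 and 0.49 on the log2 scale). After array-type means were removed, the genes whose values over the 12 samples were most like Zp2 were Crk and Sash3 (Pearson r = 0.93 each). For Zar1 they were Lrch4 and Mfsd4a (0.95 and 0.94), and for Gdf9 Tcf4 and Rbm48 (0.93 each). These are the highest of many correlations between values that share arrays, given as a description.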
